A study of Drosophila melanogaster with 2 samples.

Results

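The vacuolar ATPase (V-ATPase) genes of Drosophila melanogaster were taken as every locus of the expression table whose symbol in the deposited annotation began with Vha followed by a digit or a capital letter. The rule found 33 genes among 19391 loci, and all 33 had at least 1 FPKM, which is fragments per kilobase of model and per 1000000 mapped fragments, in 1 library. There was 1 RNA-seq library of females and 1 of males, called the female and male pools here, each made from polyadenylated RNA of whole adult flies aged 3 to 5 days. Both pools combined 192 DGRP lines (Drosophila Genetic Reference Panel, inbred lines founded from a wild population), with 200 ng of RNA per line. Flies were reared at 25 °C, and the labels give no genotype or treatment that separates the groups other than sex. With 1 pool per sex, no difference given here has a replicate check, and the values describe these libraries.

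The V-ATPase is a rotary proton pump of endosomes, lysosomes, secretory vesicles and the apical membrane of transporting epithelia such as the Malpighian tubule, the insect renal organ. Its cytosolic V1 sector hydrolyses ATP, and its membrane VO sector carries protons through a ring of small hydrophobic proteolipids. Accessory membrane proteins accompany the complex. Fly subunits are named by a number or code (Vha68 is subunit A), and a number after the hyphen marks a copy. The 33 genes fell into 15 subunit numbers, of which 7 had a single gene and 8 had several, with 26 genes among them.

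The labels were checked against marker lists. Of 8 female germline markers 7 passed 2-fold toward the female pool, and grk, at 19.3 and 14.7 FPKM, did not. All 12 testis and all 7 accessory gland markers passed 2-fold toward the male pool. Markers of midgut, eye and nervous system, muscle and Malpighian tubule were above 0 FPKM in both pools, though not all reached 1 FPKM.

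Each subunit number had a copy at 100 FPKM or more in both pools, 15 genes in all. As deposited, these differed by less than 2-fold between the sexes. Under other scalings, given below, some of them passed 2-fold. Of the other 18 genes, 11 were at 1 FPKM or more in the male pool and under 1 FPKM in the female pool, and these are called male-limited here. The remaining 7 were lower-level copies measured in both. No V-ATPase gene was at 1 FPKM or more in the female pool alone. At this limit of 1 FPKM, each of the 8 subunit numbers with several genes had at least 1 male-limited copy.

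A gene was counted as higher in a library when the log2 ratio, log2((female FPKM + 1)/(male FPKM + 1)), was at least 1 in size, which is 2-fold. This scale understates the change of low genes. Where a pair of FPKM values is given, the female one comes first. By this measure 14 of the 33 genes (42.4%) were higher in the male pool, against 40.7% of the 14108 loci tested. None of the 33 was higher in the female pool, against 21.5% of loci tested. The 11 male-limited genes made up 33.3% of the group, against 27.8% of loci tested that were at 1 FPKM or more in the male pool only, and 2.72% were so in the female pool only. At these settings the shares for the male pool were near those of all loci. Under other settings the share higher in the male pool was 36.4% against 20.3% at 4-fold and 42.4% against 29.6% with no minimum. It was 42.4% against 31.6% with equal sums of the pools. A minimum of 5 FPKM gave 40.6% against 38.9%, and a pseudocount of 0.1 gave 42.4% against 45.3%. With cytoplasmic ribosomal protein genes set to the same median it was 57.6% against 57%. Requiring 1 FPKM in both pools, which removes the male-limited genes, gave 13.6% against 24.3%. The median log2 ratio was −0.14 over the 33 genes and −0.58 over all loci tested.

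**Figure D1:**
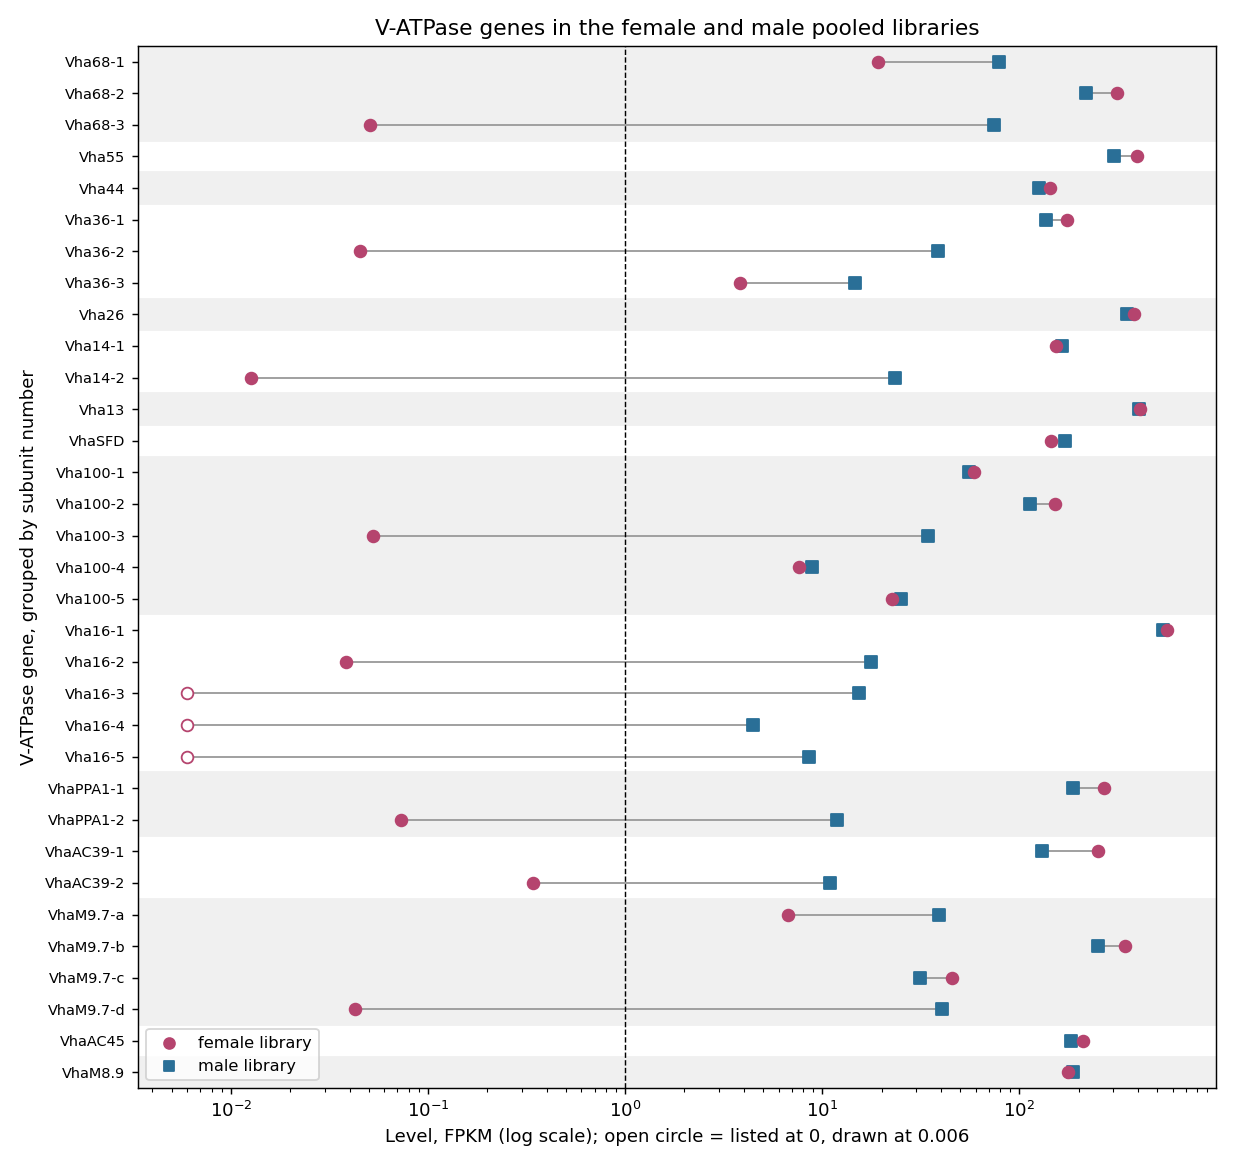
Level of each of the 33 V-ATPase genes in FPKM on a log axis, in the female pool (circles) and the male pool (squares), grouped by subunit number, with a dashed line at 1 FPKM. The pairs of symbols lie close together for the 15 highest copies, while 11 copies have squares between 4.47 and 74.2 FPKM and circles at or under 0.342 FPKM, 3 of them listed at 0.

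The catalytic subunit A, which binds and hydrolyses ATP, is encoded by Vha68-1, Vha68-2 and Vha68-3. Vha68-2 was the highest copy, at 313 FPKM in the female pool and 217 FPKM in the male pool. Vha68-3 was at 0.0508 FPKM in the female pool and 74.2 FPKM in the male pool, a log2 ratio of −6.16, and was the highest of the male-limited copies. Vha68-1 was measured in both sexes but lay at 19.2 FPKM in the female pool and 78.9 FPKM in the male pool (log2 ratio −1.98). In the male pool Vha68-1 and Vha68-3 were thus at similar levels and together held 41.3% of the summed FPKM of subunit A, against 5.81% in the female pool. The coding sequences of Vha68-1 and Vha68-2 have the same length, 1845 nt, and that of Vha68-3 is longer, at 2232 nt. The sequences were not compared here, so how fragments were divided between similar copies is uncertain for this and the other subunit numbers.

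The rotor subunits D and F of the V1 central stalk each had a male-limited copy. Vha36-1 (subunit D) was at 175 FPKM in the female pool and 137 FPKM in the male pool, and Vha36-2 at 0.0451 and 38.6 FPKM (log2 ratio −5.24). The coding sequence of Vha36-2, at 1122 nt, is longer than the 741 nt of Vha36-1. The X-linked copy Vha36-3 was low in both pools, at 3.83 FPKM in the female pool and 14.7 FPKM in the male pool (log2 ratio −1.70). For subunit F, Vha14-1 was at 154 and 164 FPKM and Vha14-2 at 0.0127 and 23.3 FPKM (log2 ratio −4.59). Copies other than the highest held 28.0% of the FPKM of subunit D and 12.5% of that of subunit F in the male pool, against 2.17% and 0.00823% in the female pool.

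The other V1 subunits had a single gene each with a Vha symbol, and none of these passed 2-fold on the values as deposited. Vha55, the nucleotide-binding subunit B that alternates with A in the catalytic head, was at 393 FPKM in the female pool and 302 FPKM in the male pool. Vha44 (subunit C, at the junction of the sectors) was at 143 and 126 FPKM. The stator stalk genes Vha26 (subunit E) and Vha13 (subunit G) were at 382 and 351 FPKM and at 408 and 405 FPKM. VhaSFD, the regulatory subunit H, was at 144 and 170 FPKM and had the lowest log2 ratio of the 15 highest copies, −0.24. Subunits B, C, E, G and H therefore had no male-limited counterpart among the loci with Vha symbols. Related loci under other names were not searched for.

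In the VO sector, subunit a carries the proton half-channels and anchors the stator, and it had 5 genes. Vha100-2 was the highest, at 152 FPKM in the female pool and 113 FPKM in the male pool. Vha100-1, known as the neuronal a subunit of synaptic vesicles, was at 58.9 and 55.3 FPKM, and Vha100-5 and Vha100-4 were at 22.5 and 25.0 FPKM and at 7.59 and 8.88 FPKM. Vha100-3 was male-limited, at 0.0524 and 34.3 FPKM (log2 ratio −5.07). In the male pool Vha100-3 was thus below Vha100-2 and Vha100-1 and above the other two. The copies below the highest held the largest share among the subunit numbers here in both pools, 37.0% in the female and 52.3% in the male.

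The proteolipid ring is built of subunit c and its relative c″. Vha16-1 (subunit c) was the highest V-ATPase gene in both pools, at 558 FPKM in the female pool and 536 FPKM in the male pool. All of its 4 other copies were male-limited. Vha16-2 was at 0.0385 and 17.7 FPKM, while Vha16-3, Vha16-5 and Vha16-4 were listed at 0 in females and at 15.3, 8.58 and 4.47 FPKM in the male pool. A listed 0 in such a table can be a failed estimate, so no ratio is given for these 3 genes. They are still counted among the 11 male-limited copies and the 14 genes higher in the male pool. Both counts thus rest in part on values listed at 0. For c″, VhaPPA1-1 was at 269 and 187 FPKM and VhaPPA1-2 at 0.0726 and 11.9 FPKM (log2 ratio −3.59). The 4 male-limited c copies summed to 46.1 FPKM in the male pool, 7.91% of subunit c, and VhaPPA1-2 made up 5.99% of c″. Weighted by exonic length, these shares were 1.90% and 2.89%.

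Subunit d joins the rotor stalk to the ring. The X-linked VhaAC39-1 was at 250 FPKM in the female pool and 131 FPKM in the male pool, a log2 ratio of 0.93 and the highest of the 33 genes. VhaAC39-2, on 3R, was at 0.342 and 11.0 FPKM (log2 ratio −3.16) and had the highest female value of the male-limited copies. The next higher female value was the 3.83 FPKM of Vha36-3, so no gene lay near the 1 FPKM limit in that library. The small hydrophobic subunit e had 4 genes with 3 patterns. VhaM9.7-b was the highest, at 345 and 252 FPKM, and VhaM9.7-c was at 45.5 and 31.3 FPKM. VhaM9.7-a was at 6.71 and 39.0 FPKM (log2 ratio −2.38), higher in males but measured in both. VhaM9.7-d was male-limited, at 0.0427 and 40.7 FPKM (log2 ratio −5.32).

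The accessory genes had a single copy each among the loci with Vha symbols. VhaAC45 was at 211 FPKM in the female pool and 182 FPKM in the male pool. VhaM8.9, whose product is the fly (pro)renin receptor, was at 177 and 186 FPKM. Neither passed 2-fold.

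**Figure D2:**
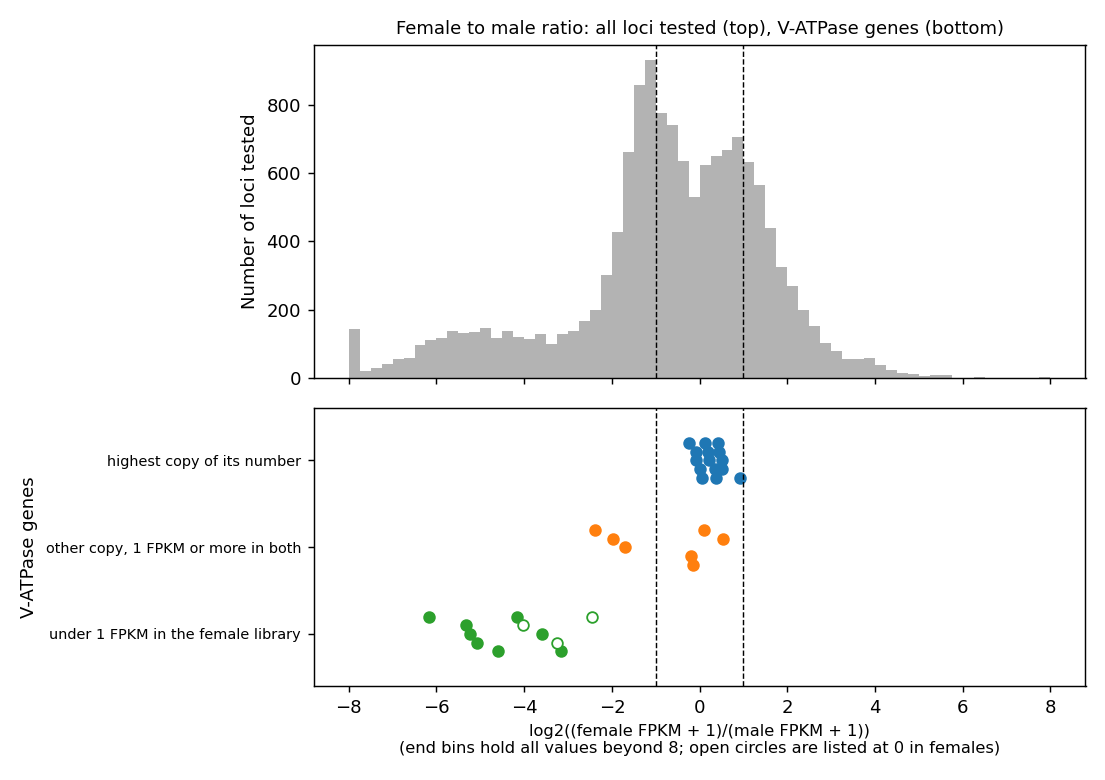
Number of loci by log2((female FPKM + 1)/(male FPKM + 1)) for the 14108 loci tested (top) and the ratio of each V-ATPase gene (bottom), with dashed lines at 2-fold. The 15 highest copies lie between −0.24 and 0.93, the 7 other copies measured in both pools between −2.38 and 0.53, and the male-limited copies above 0 in the female pool between −6.16 and −3.16, while the positions of the 3 open circles are set by the pseudocount.

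Among themselves the male-limited copies spanned 16.6-fold in the male pool, from Vha16-4 to Vha68-3. Their order was Vha68-3, VhaM9.7-d, Vha36-2, Vha100-3, Vha14-2, Vha16-2, Vha16-3, VhaPPA1-2, VhaAC39-2, Vha16-5 and Vha16-4. Without replicates, neighbours in this order cannot be said to differ. They lay between the 21.3rd and the 86.2nd percentile of the loci detected in the male pool, with a median at the 54.2nd. The 15 highest copies lay at or above the 91.1st percentile in the male pool and the 93.3rd in the female pool. The levels of those 15 genes spanned 3.89-fold in the female and 4.76-fold in the male pool. Their order was similar in the pools, with a Spearman rho of 0.90 and a Pearson r of 0.89 on log2(FPKM + 1) across 15 genes, which share their library and are not replicates.

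Within a subunit number the share of a copy does not depend on how the pools are scaled to each other. Copies other than the highest held a median of 20.2% of the FPKM of their subunit number in the male pool (range 5.99 to 52.3%, 8 subunit numbers). In the female pool the median was 1.15% (range 0.00691 to 37.0%), and the share was higher in the male pool for all 8. Each of the 8 included a male-limited copy, kept low in the female pool by definition. The direction and the gap between the medians were thus in part fixed in advance. For Vha14, Vha16, VhaAC39 and VhaPPA1, all copies other than the highest were male-limited. The male-limited copies alone held from 5.99% (VhaPPA1) to 20.3% (Vha36) in the male pool and at most 0.137% (VhaAC39) in the female pool. Their low female shares follow from the definition of male-limited and are not a separate result.

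**Figure D3:**
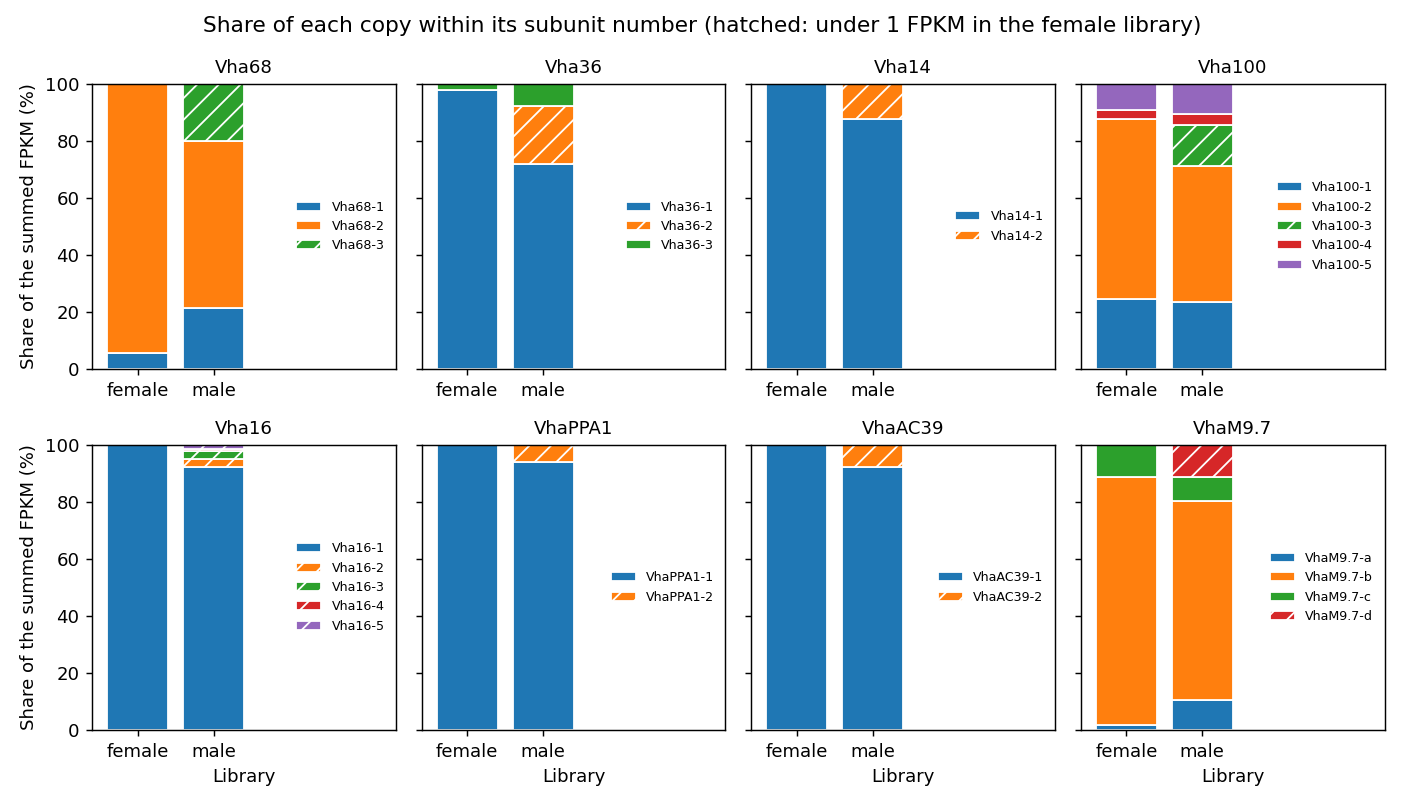
Share of each copy in the summed FPKM of its subunit number (percent) in the female and male pools, for the 8 subunit numbers with several genes, with male-limited copies hatched. Hatched segments are visible in every male bar, from 5.99% for VhaPPA1 to 20.3% for Vha36. They are visible in no female bar, where the definition of male-limited keeps them small.

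The male-limited copies together came to 280 FPKM in the male pool, 7.01% of the 3992 FPKM of all V-ATPase genes there. In the female pool they came to 0.657 FPKM, 0.0155% of 4239 FPKM, a total kept low by their definition. By subunit, the male-limited V1 copies gave 74.2 FPKM for A, 38.6 for D and 23.3 for F. Those of VO gave 34.3 FPKM for a, 46.1 for c, 11.9 for c″, 11.0 for d and 40.7 for e. The V1 and VO copies summed to 136 and 144 FPKM.

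Summed over all copies, the 15 subunit numbers differed by less than 2-fold between the pools as deposited. Log2 ratios of the sums ran from −0.28 (Vha14) to 0.82 (VhaAC39), with 9 sums higher in the female pool and 6 in the male pool. For Vha68 the highest copy alone had a log2 ratio of 0.52 and the sum of its 3 copies one of −0.16, at 332 FPKM in the female pool and 370 FPKM in the male pool. The sums of Vha36 and Vha16 were 179 and 190 FPKM and 558 and 582 FPKM, also on the other side of their highest copies as deposited. These sides rested on the deposited scaling. With equal sums of the pools all 15 subunit sums were higher in the female pool, with log2 ratios of 0.35, 0.42 and 0.45 for Vha68, Vha36 and Vha16. With ribosomal protein genes set to the same median all 15 were higher in the male pool, at −1.12, −1.05 and −1.03 for the same 3. Under neither scaling did a sum lie on the other side of its highest copy.

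**Figure D4:**
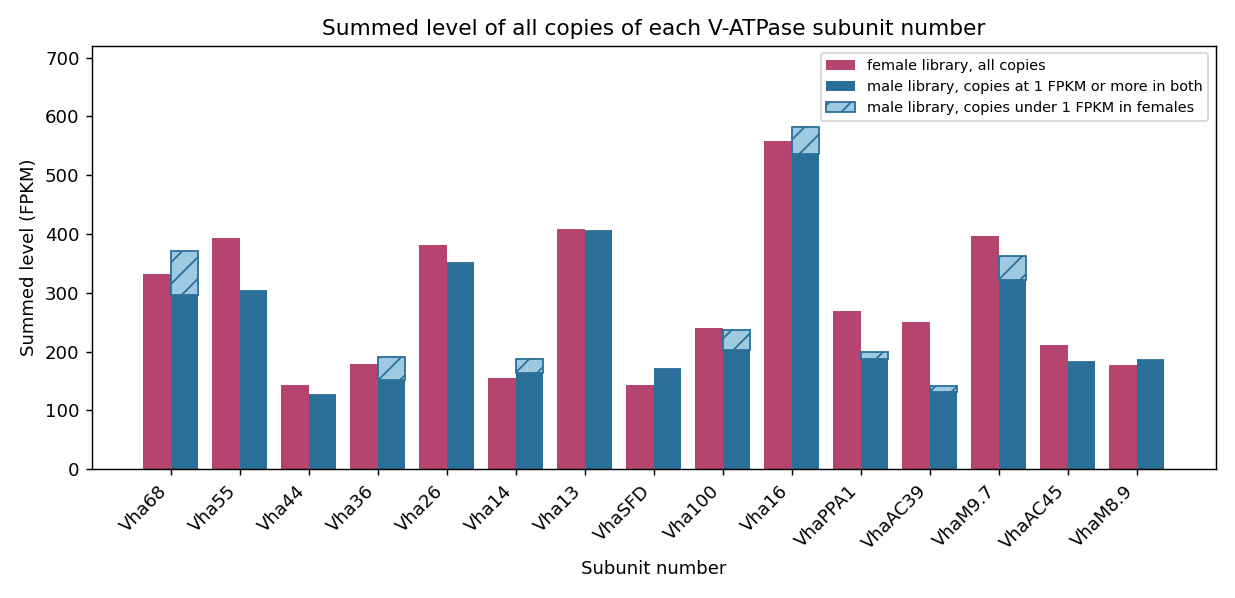
Summed FPKM of all copies of each subunit number in the female pool (left bar) and the male pool (right bar, with the part held by male-limited copies hatched), from 0. Vha16 is the highest in both pools, at 558 and 582 FPKM, and the male sums of Vha68, Vha36 and Vha16 lie above the female ones with the hatched parts and below without them on the values as deposited, but not under the 2 other scalings, where all 15 sums lie on 1 side.

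The direction of the genes under 2-fold depended on scaling. Of the 19 such genes, 14 were higher in the female pool and 5 in the male pool as deposited. All 19 were higher in the female pool with the pools set to equal sums. VhaAC39-1 (log2 ratio 1.43), VhaPPA1-1 (1.03), Vha68-2 (1.03) and VhaM9.7-c (1.02) then passed 2-fold. All 19 were higher in the male pool with the cytoplasmic ribosomal protein genes set to the same median. VhaSFD (−1.20), Vha100-5 (−1.07), Vha100-4 (−1.06), Vha14-1 (−1.05) and VhaM8.9 (−1.04) passed 2-fold there. These scalings moved the median of all loci by 0.41 and by −0.73 on the log2 scale. The 14 genes called higher in the male pool kept that call under both scalings.

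Testis and accessory gland markers were higher in the male pool, while 7 of 8 female germline markers were higher in the female pool. The 12 testis markers summed to 20.4 FPKM in the female pool and 4273 FPKM in the male pool, with log2 ratios from −9.23 to −1.36, and the 7 accessory gland markers to 8.54 and 15517 FPKM. None of these markers was listed at 0. Their part in the levels of the male-limited copies was not tested, and in whole flies fewer cells of a type and less RNA per cell cannot be told apart. Among somatic markers, 7 of 11 of the Malpighian tubule (median log2 ratio −1.24) and 7 of 8 of the eye and nervous system passed 2-fold toward the male pool. So did 7 of 8 of muscle and 3 of 10 of the midgut, against 40.7% of loci tested. Of these 4 lists, a gene higher in the female pool was found in the tubule list, Ugt316A1 (35.7 and 12.8 FPKM). With equal sums the counts were 3, 5, 6 and 1, against 31.6% of loci tested. With ribosomal protein genes set to the same median they were 10, 8, 8 and 10, against 57% of loci. The 15 highest V-ATPase copies had a median log2 ratio of 0.21 as deposited.

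Other genes tied to the pump were counted for context. Of 5 genes of V-ATPase assembly and regulation measured, Mitf, a transcription factor of lysosomal genes, was higher in the female pool (109 and 38.0 FPKM, log2 ratio 1.50). CG31030, which the RefSeq table of Release 6 names VhaAC45RP, was higher in the male pool (6.71 and 31.0 FPKM, log2 ratio −2.05), while remaining above 1 FPKM in females. Named for their role, Rbcn-3A and Rbcn-3B, the rabconnectin-3 subunits that act in assembly of the pump, had log2 ratios of 0.71 and 0.10, below the limit. Of 22 epithelial ion transport genes 9 were higher in the male and 1 in the female pool, with a median log2 ratio of −0.85. The 40.9% for the male pool was near the 40.7% of all loci tested, and the female share of 4.55% was below their 21.5%. The counts were 4 and 4 with equal sums (31.6% and 31% of loci) and 15 and 1 with ribosomal protein genes set to the same median (57% and 8.47% of loci). The lowest was nrv2, a beta subunit of the sodium pump (26.5 and 135 FPKM), and the highest was the aquaporin Prip (194 and 30.0 FPKM). Of 22 genes of lysosome and endosome function 5 were higher in the male and 1 in the female pool, shares of 22.7% and 4.55%, with a median log2 ratio of −0.21. With equal sums the counts were 1 and 3 (median 0.29), which is 4.55% and 13.6% against 31.6% and 31% of loci. With ribosomal protein genes set to the same median they were 15 and 0 (median −1.15). These are 68.2% and 0%, against 57% and 8.47% of loci. The lowest was Hexo2, a hexosaminidase (12.6 and 43.4 FPKM), and the highest was car, a vesicle tethering protein (17.2 and 7.51 FPKM). With ribosomal protein genes set to the same median, neither Mitf nor car passed 2-fold.

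Gene structure was compared between the classes as a description. Coordinates are those of the deposited annotation, whose build is BDGP5 per the submitters' processing notes. Of the 11 male-limited copies, 7 had the coding sequence in a single exon, against 5 of the 22 other genes and 20.4% of the 13888 loci with a coding model. All 7 belonged to VO. The single-exon Vha100-3 (2R, 14796505 to 14799219) lies in an intron of sano on the opposite strand. Vha14-2 (3R, 1948314 to 1950127) has up to 4 exons where Vha14-1 (2R, 11566931 to 11567585) has 1. The median exonic length was 1065 nt for male-limited copies and 2141 nt for the other genes. The models of Vha100-3 and VhaPPA1-2 held no untranslated sequence, and the shortest exonic length was the 494 nt of VhaM9.7-d. The correction for effective length, which weighs on FPKM of short transcripts, is not given in the sources used here. All 11 male-limited copies were autosomal. The X held 2 of the 33 genes, Vha36-3 and VhaAC39-1, against 15.4% of loci tested.

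Several copies are neighbours. Vha68-3 (2L, 12978786 to 12981293) starts 178 bp beyond the end of Vha68-2 on the same strand, and Vha68-1 lies 19476 bp further on the opposite strand. The adjacent Vha68-2 and Vha68-3 thus had log2 ratios of 0.52 and −6.16. Vha16-3 (3L, 11466391 to 11467072) and Vha16-2 (3L, 11468058 to 11468652) are 985 bp apart on the same strand, and both were male-limited. Vha100-4 and Vha100-2, separated by 519 bp, were both under 2-fold as deposited. VhaPPA1-2 (3R, 10725361 to 10725999) and VhaPPA1-1 are 2048 bp apart with RpS5b, a ribosomal protein gene, between them. RpS5b lies 154 bp from VhaPPA1-2 and was at 598 FPKM in the female pool and 39.3 FPKM in the male pool, the reverse of the male-limited copy beside it.

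**Figure D5:**
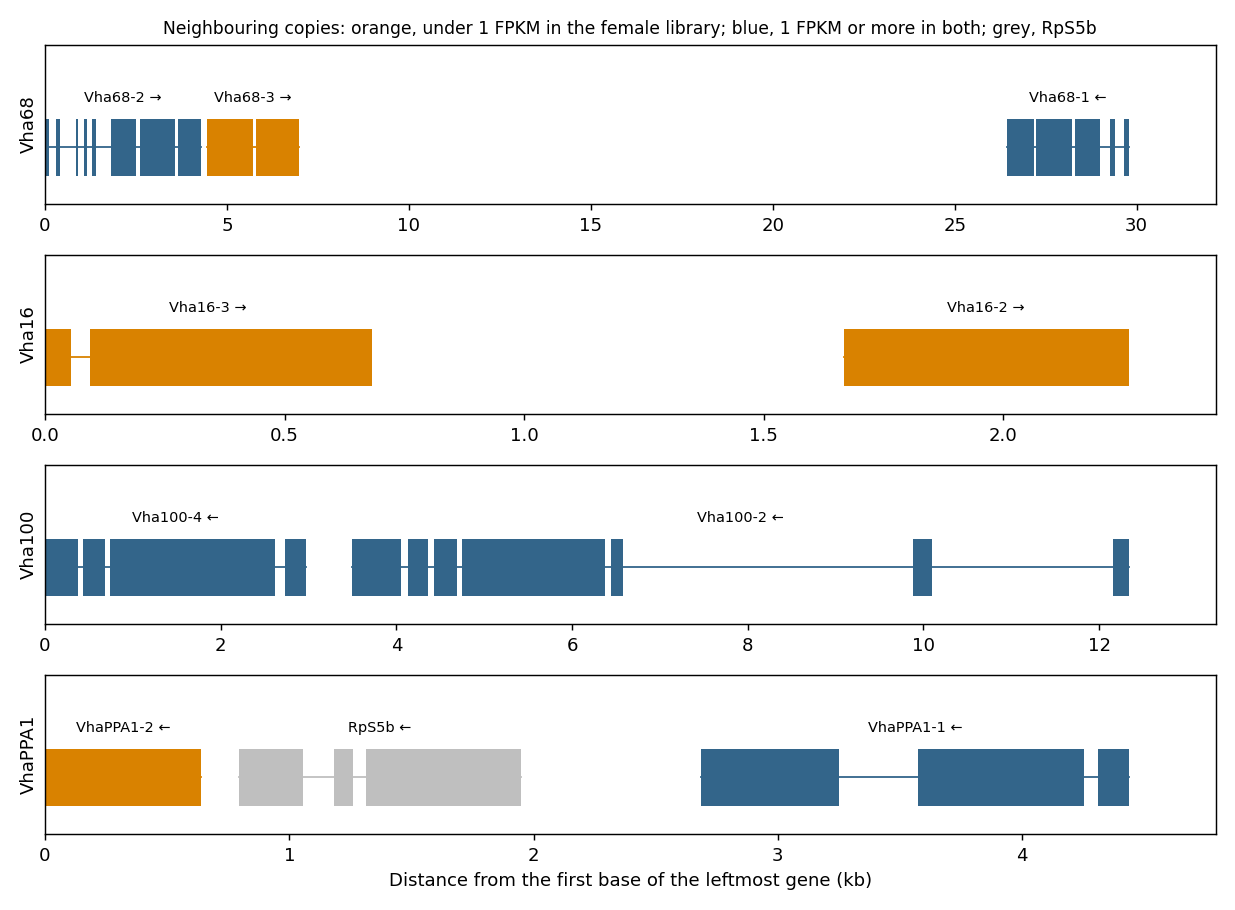
Exons (boxes) and gene spans (lines) of neighbouring V-ATPase copies, by distance in kb from the first base of the leftmost gene, with arrows for strand and a separate scale in each row. Male-limited copies (orange) lie 178 bp from Vha68-2, 985 bp from each other at Vha16 and 154 bp from RpS5b (grey) at VhaPPA1.

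The loci flanking male-limited copies showed both directions. Of 15 such neighbours tested that were not V-ATPase genes, 7 passed 2-fold toward the male and 4 toward the female pool, against 10 and 6 of 33 beside the other V-ATPase genes. These are 46.7% and 26.7%, beside 40.7% and 21.5% of all loci tested. Beside VhaM9.7-d, Actn3 was at 0.0217 and 42.2 FPKM, and beside Vha36-2, CG13168 was at 0.116 and 92.3 FPKM. In contrast Nup107, 241 bp from Vha16-5, was at 42.9 and 8.21 FPKM, and mute, 72 bp from Vha16-4, at 29.7 and 8.06 FPKM. These 4 neighbours were chosen after their values were seen. Vha16-5 (2L, 10736319 to 10737576) shares 232 nt of exon, 21.8% of its length, with CG12299 on the opposite strand (26.3 and 4.55 FPKM). Vha100-5 shares 527 nt (18.1%) with CR44144 on the opposite strand. The use of strand in counting is not given in the sources used here, so reads from these overlaps cannot be assigned. The deposited annotation added 1 new isoform to the V-ATPase genes, at Vha13.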

How the data were processed

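The authors deposited 1 table of FPKM with a column per library and 1 annotation of transcript models. The submitters' processing notes name TopHat2 2.0.8, Cufflinks 2.0.2 and build BDGP5, without their roles. Column sums were 669223 FPKM (female) and 951735 FPKM (male). To look for whole fragments, low FPKM were multiplied by transcript length, with a length offset of 130 nt. The products were set against multiples of a step, 0.01245 (female) or 0.01215 (male) FPKM times kb. Of these, 62.0% of 384 female and 40.3% of 67 male values were whole multiples within a tolerance of 0.15. By chance 30% would be so. Hence counts were not recovered and depth is unknown. FPKM were used unscaled with a pseudocount of 1, loci needed 1 FPKM in 1 library, and 2-fold was the limit. With 1 library per sex no test was possible. The calling step was tested on simulated data. All V-ATPase genes are named. Of the pathway lists, up to 4 genes each were to be named from the ends of the ratio range; Rbcn-3A and Rbcn-3B were named for their role, and of the marker lists only grk and Ugt316A1, the exceptions to their list. Members, lists and limits were chosen with earlier results of these data known. Genes on lists were matched by symbol or identifier; 2 of the 8 assembly names did not match and 1 was a V-ATPase gene already counted. The alternatives were another pseudocount, minimum, threshold and scaling. Python 3.11.15, numpy 2.4.6, scipy 1.17.1, pandas 2.3.3 and matplotlib 3.10.9 were used.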

Additional observations from a re-analysis of the deposited data

How the results depend on the processing

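The count of 14 V-ATPase genes past 2-fold toward the male library became 3 with 1 FPKM required in both libraries, which removes the 11 male-limited copies by construction (13.6%, against 24.3% of loci), and stayed within 1.5 times under the 6 other alternatives (12 to 19 genes). The share over all loci moved too: 12 of 33 genes (36.4%) stood beside 20.3% of loci at 4-fold, and 19 of 33 (57.6%) beside 57% with ribosomal protein genes set to the same median. The count for the female library was 0 except with equal sums, where it was 4 genes (VhaAC39-1, VhaPPA1-1, Vha68-2 and VhaM9.7-c; 12.1%, against 31% of loci). The median log2 ratio of −0.14 became 0.11 with 1 FPKM required in both libraries, 0.35 with equal sums and −1.06 with ribosomal protein genes set to the same median. The count of male-limited copies stayed within 1.5 times of 11 under its 4 alternatives, but its members changed. With a limit of 0.1 FPKM it was 10, without VhaAC39-2 (0.342 FPKM in the female library), so VhaAC39 had no such copy. With a limit of 5 FPKM it was 11, without Vha16-4 and with Vha36-3. Weighting FPKM by exonic length moved the male share of copies other than the highest by over 5 percentage points for Vha14 (to 26.7%), Vha16 (to 1.90%) and VhaM9.7 (to 19.5%), by construction, since it counts long models more, and VhaPPA1 fell from 5.99% to 2.89%. No paired analysis was possible because each sex had 1 library. Depth is unknown, so values far below 1 FPKM in the female library have no counting error attached.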
